A study of Mus musculus with 34 samples.

Results

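*Bcl2l11*, *Rbl2*, *Hbp1*, *Zbtb4* and *Cyld*, tumor suppressor genes long reported as targets of the miR-17-92 microRNA cluster, were followed by name across polycystic kidneys that had or had not been treated with an anti-miR-17 oligonucleotide. They are 5 of the 23509 genes in the count tables, and 5 of 5 passed the filter on low counts that left 15644 tested genes. Whole-kidney polyadenylated RNA was sequenced from 34 C57BL6 mice, all harvested on postnatal day 28 (P28). The UNT group (n = 12) comprised untreated non-transgenic mice. The PBS (n = 11) and RGLS4326 (n = 11) groups were *Pkd2*-KO mice, in which a Cre recombinase driven by the *Pkhd1* promoter, active in kidney tubules, deletes floxed *Pkd2* (the sample labels spell this genotype Pdk2KO). PBS or 20 mg of RGLS4326 per kg body weight was injected subcutaneously on P10, P11, P12 and P19. Neither non-transgenic mice given RGLS4326 nor a control oligonucleotide was analysed here.

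The miR-17-92 cluster encodes several microRNAs that share a primary transcript but belong to different seed families, and it acts as an oncogene in lymphoma and other cancers. A microRNA guides silencing proteins to messenger RNAs whose 3′ untranslated region (3′UTR) pairs with its seed, which represses translation and destabilises the message. The genes followed here restrain tumours by different routes. *Bcl2l11* encodes Bim, a BH3-only protein that triggers mitochondrial apoptosis. *Rbl2* encodes the pocket protein p130, which holds E2F factors and the DREAM complex on cell cycle genes in resting cells. *Hbp1* encodes an HMG-box repressor of Wnt target and cell cycle genes. *Zbtb4* encodes a zinc finger repressor that binds methylated DNA, and *Cyld* encodes a deubiquitinase that removes lysine-63-linked and linear ubiquitin chains from proteins of the NF-kappaB pathway.

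RGLS4326, an anti-miR, is a chemically modified oligonucleotide kept short enough to pair with little more than the seed of miR-17. The mature mouse sequences in RefSeq (GRCm38.p6) show which cluster members carry that seed. Bases 2 to 8, the seed, are in capitals. The first group holds the 6 microRNAs that share the miR-17 seed, of which miR-17 and miR-20a lie in the cluster on chromosome 14 and the other 4 in related clusters on chromosomes 5 and X.
mmu-miR-17-5p: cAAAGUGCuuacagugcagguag
mmu-miR-20a-5p: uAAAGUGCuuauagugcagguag
mmu-miR-20b-5p: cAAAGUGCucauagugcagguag
mmu-miR-93-5p: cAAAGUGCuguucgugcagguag
mmu-miR-106a-5p: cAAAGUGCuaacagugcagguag
mmu-miR-106b-5p: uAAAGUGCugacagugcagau

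The remaining members of the cluster carry other seeds, so a target can be reached by microRNAs of the cluster whose seed differs from that of miR-17.
mmu-miR-18a-5p: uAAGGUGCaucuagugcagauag
mmu-miR-19a-3p: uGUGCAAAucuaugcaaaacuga
mmu-miR-19b-3p: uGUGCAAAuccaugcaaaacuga
mmu-miR-92a-3p: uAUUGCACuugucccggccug

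Matches to the miR-17 seed were present in the 3′UTR of all 5 genes, but for *Hbp1* only outside its longest annotated 3′UTR. For each gene, the longest 3′UTR in GENCODE M21 (GRCm38) was searched on the transcript strand for the 8-base match GCACTTTA, the 7-base match GCACTTT and the 7-base match CACTTTA, with the 7-base strings inside an 8-base match counted once, as that match. *Cyld* had 4 matches in 4932 bases, *Zbtb4* 3 in 4622 bases, *Bcl2l11* 2 in 4218 bases and *Rbl2* 2 in 1398 bases. Some shorter 3′UTRs of other coding transcripts had fewer, down to 1 in *Cyld* and 0 in *Zbtb4* and *Bcl2l11*. Which 3′UTR these kidneys use was not measured. The longest 3′UTR of *Hbp1* (1295 bases) had 0, and a shorter one of another coding transcript (1236 bases) had 1. Of the 14193 tested genes with an annotated 3′UTR, 21.2% had at least 1 match, 4.57% had 2 or more and 4.26% had an 8-base match. The long 3′UTRs of *Cyld*, *Zbtb4* and *Bcl2l11* exceeded those of 95.6%, 94.7% and 93.2% of these genes. Counting the shorter 3′UTR of *Hbp1*, each gene had a single 8-base match (1 of its matches), shown here in capitals within a window of 30 bases. The first 7 bases of the match are complementary to the miR-17 seed, and its last A lies opposite base 1 of the microRNA, outside the seed.
Bcl2l11, chr2:128160441-128160470, plus strand: ccccgactggaGCACTTTActgtctcagcc
Rbl2, chr8:91123140-91123169, plus strand: tgtaattggtgGCACTTTAtggctgtaaga
Hbp1, chr12:31926658-31926687, minus strand, shorter 3′UTR: gtgcaccacttGCACTTTActccctccggc
Zbtb4, chr11:69781260-69781289, plus strand: tcttgtttctgGCACTTTAgaaaaactgca
Cyld, chr8:88748476-88748505, plus strand: tatttttaaagGCACTTTActccttggttt

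The genes also differed in their matches to the other seeds of the cluster. The miR-19 seed was searched as TTTGCAC, TTTGCACA and TTGCACA, the miR-92 seed as GTGCAAT, GTGCAATA and TGCAATA, and the miR-18 seed as GCACCTT, GCACCTTA and CACCTTA. *Bcl2l11* had 2 miR-19 and 2 miR-92 matches in its longest 3′UTR. *Zbtb4* had 3 miR-19 matches and 1 miR-18 match, and 1 of the miR-19 matches overlapped a miR-17 match in the string TTTGCACTTT. *Cyld* had 2 miR-19 matches and *Rbl2* had 1 miR-92 match. *Hbp1* had 0 in its longest 3′UTR, but 2 miR-19 matches and 1 miR-18 match in shorter ones. Among tested genes with a 3′UTR, 18.7% had a miR-19 match, 13.7% a miR-92 match and 14.3% a miR-18 match. A match is a string in the annotation, and no binding was measured in these samples.

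**Figure D1:**
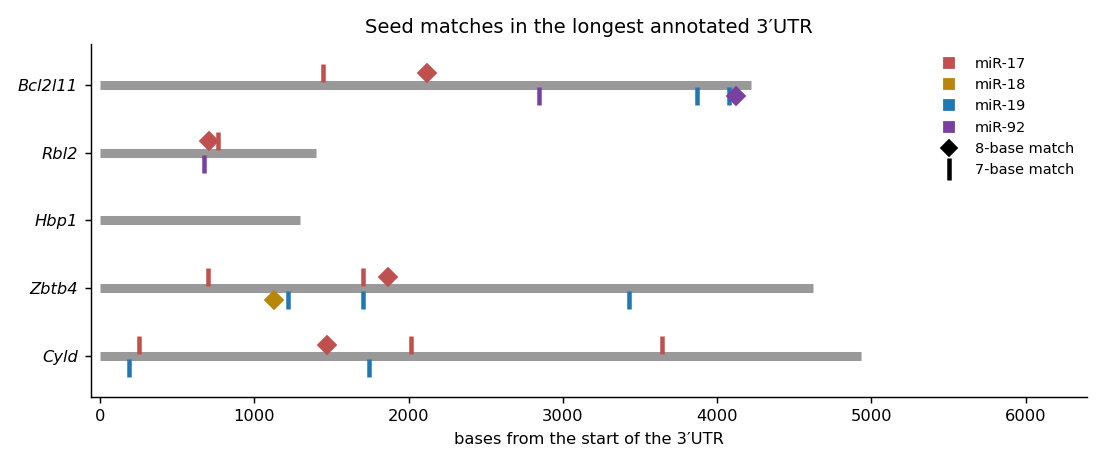
Seed matches of the cluster's microRNAs in the longest 3′UTR. Each gray bar is 1 gene. The x axis gives bases from the start of the 3′UTR, miR-17 matches are drawn above each bar and those of the other seeds of the cluster below it, diamonds are 8-base and ticks 7-base matches. *Cyld* has 4 miR-17 matches, *Zbtb4* 3, *Bcl2l11* 2, *Rbl2* 2 and *Hbp1* 0 in this transcript.

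Libraries held between 17603122 and 54981992 reads in genes, and the 5 genes had from 371 counts (*Bcl2l11*, in a UNT library) to 8100 counts (*Hbp1*, in a UNT library), so that differences between mice rather than counting error set the precision. Replicates were separate mice by their labels. *Pkd2*, the gene deleted in the *Pkd2*-KO mice, was lower in each PBS library (98.0 to 215 CPM, counts relative to library size after scaling) than in each UNT library (220 to 338 CPM). It was 170 to 237 CPM with RGLS4326. Of all tested genes, 42.5% likewise had no overlap between PBS and UNT mice. Cell type markers moved with the groups. The summed level of 5 proximal tubule markers had a median of 8874 CPM in UNT, 1422 CPM in PBS and 2351 CPM in RGLS4326 kidneys, and that of 4 macrophage markers 92.6, 824 and 596 CPM. Of the 5 fibroblast and mural markers, 5 were higher in PBS than in UNT kidneys, with summed medians of 617 and 3747 CPM. Reads in no gene had median shares of 10.9%, 6.62% and 8.38% in UNT, PBS and RGLS4326 mice. In whole kidney, fewer cells of a type and less RNA per cell cannot be told apart, and the part of these shifts in the differences given below was not tested.

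Per length of transcript, *Hbp1* had the highest level of the 5 genes in every group and *Bcl2l11* the lowest. On the scale of RPKM (CPM per kilobase of merged exons), UNT kidneys had 22.5 ± 4.65 (SD, n = 12) for *Hbp1*, 13.3 ± 2.23 for *Rbl2*, 7.94 ± 0.62 for *Zbtb4*, 5.32 ± 0.72 for *Cyld* and 2.13 ± 0.42 for *Bcl2l11*. Among neighbours in this order, only the ranges of *Hbp1* and *Rbl2* overlapped over the UNT mice. *Zbtb4* stood above *Rbl2* in PBS kidneys, with 13.5 ± 1.23 (n = 11) against 10.3 ± 1.18 RPKM and overlapping ranges. *Cyld* (5.19 ± 0.47) and *Bcl2l11* (4.32 ± 0.60) also overlapped there. The same order held in the RGLS4326 group, where *Zbtb4* (11.6 to 15.6 RPKM) overlapped *Rbl2* (9.91 to 12.6 RPKM) and *Cyld* (5.16 to 6.44 RPKM) lay above *Bcl2l11* (3.06 to 4.52 RPKM) in every mouse.

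**Figure D2:**
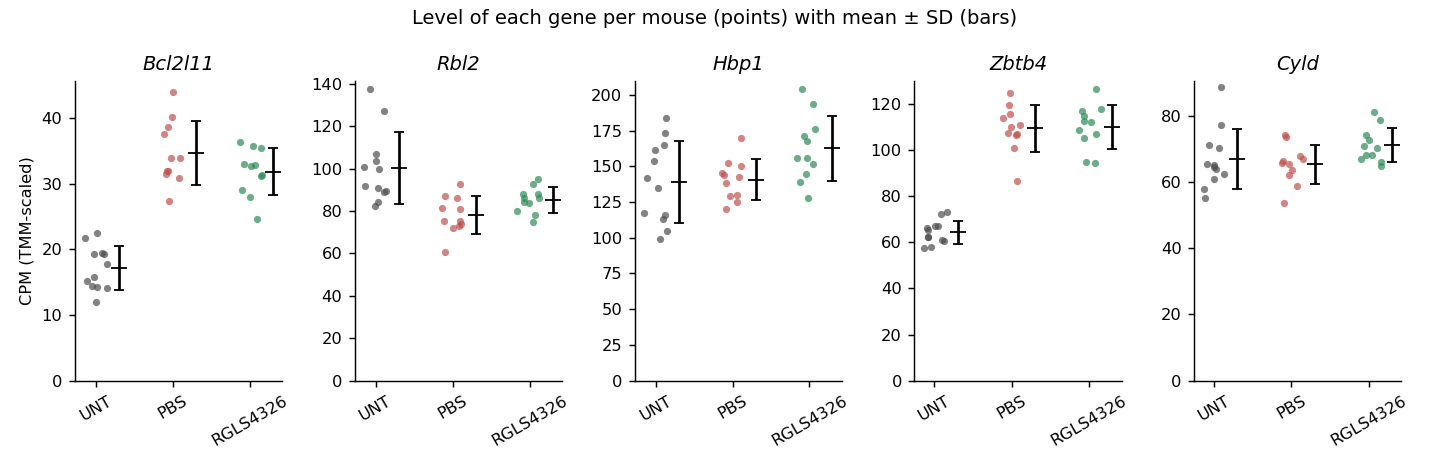
Level of each gene in every mouse. The y axes give CPM after TMM scaling and start at 0, each point is 1 mouse, and the bars beside the points are the mean ± SD of UNT (n = 12), PBS (n = 11) and RGLS4326 (n = 11) kidneys. The UNT points of *Bcl2l11* and *Zbtb4* lie below all points of both *Pkd2*-KO groups.

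To examine how the cystic kidney differed from the normal kidney, PBS-treated *Pkd2*-KO mice were compared with UNT mice. *Bcl2l11* and *Zbtb4* were higher in cystic kidneys, *Rbl2* was lower, and *Hbp1* and *Cyld* did not pass the test. An adjusted p under 0.05 (edgeR quasi-likelihood test, Benjamini-Hochberg over all tested genes) was reached by 3 of 5, against 82.1% of all tested genes. Higher were 2 of 5, against 43.1%, and lower was 1 of 5, against 39%. Moreover 2 of 5 had groups that did not overlap, against 42.5% of all tested genes.

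*Bcl2l11*, on chromosome 2 (GRCm38, chr2:128126038-128162547, plus strand), was the gene with the widest difference. It ranged from 12.0 to 22.5 CPM in UNT mice (median 16.8) and from 27.3 to 44.0 CPM in PBS mice (median 33.8), so the highest normal kidney lay below the lowest cystic one. The fold change was 2.03 (95% interval 1.78 to 2.31), or 1.02 ± 0.09 (SE) on the log2 scale, with an adjusted p of 1.64e-12 from edgeR. This log2 fold change stood higher than 82.0% of those of all tested genes.

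*Zbtb4* (chr11:69765912-69784023, plus strand) also separated the groups completely. UNT mice had 57.8 to 73.1 CPM (median 64.1) and PBS mice 86.9 to 125 CPM (median 109.9). The level was 1.70-fold higher (95% interval 1.57 to 1.83) in PBS kidneys, or 0.76 ± 0.05 (SE) on the log2 scale, with an edgeR adjusted p of 3.78e-15. Its spread between mice was small, with a coefficient of variation of 7.83% in UNT and 9.14% in PBS kidneys.

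*Rbl2* (chr8:91070057-91123844, plus strand) went the other way. Its level was 82.2 to 137 CPM (median 95.9) in UNT and 60.4 to 92.7 CPM (median 75.4) in PBS mice. The groups overlapped, although 8 of 11 PBS mice lay below the lowest UNT mouse and 11 of 11 below the UNT mean. The log2 fold change was -0.36 ± 0.07 (SE), a fold of 0.78 (95% interval 0.70 to 0.86, edgeR adjusted p = 3.31e-05). Of its exons, 693 bases overlap those of *Aktip* on the opposite strand, and the strand setting of the counting is not given in the sources used here.

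*Hbp1* (chr12:31926254-31950535, minus strand) had nearly the same level in both groups but was more variable among normal mice. It ranged from 99.2 to 184 CPM (median 138) in UNT and from 120.4 to 169.9 CPM (median 142.5) in PBS mice. The PBS values fell entirely within the UNT range. The log2 fold change was 0.02 (95% interval -0.17 to 0.21, edgeR adjusted p = 0.844). The exons of *Hbp1* overlap those of *Cog5* on the opposite strand over 1514 bases.

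*Cyld* (chr8:88697028-88751945, plus strand) ranged from 55.2 to 88.7 CPM (median 64.8) in UNT and from 53.6 to 74.1 CPM (median 65.7) in PBS mice. The ranges overlapped, and 2 of 12 UNT mice lay above the highest PBS mouse. The log2 fold change was -0.04 (95% interval -0.16 to 0.09, edgeR adjusted p = 0.606).

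The calls of *Rbl2*, *Hbp1* and *Cyld* were otherwise with total counts in place of TMM scaling, and stayed as they were with median ratios or upper quartiles (*Rbl2* adjusted p = 8.59e-06 and 2.39e-05, edgeR). The 10 genes with the most reads took 13.6% to 16.8% of the reads in genes in UNT libraries and 4.81% to 6.99% in PBS libraries. Without scaling factors (total counts only), the median log2 fold change of all tested genes was 0.33, which is 0.30 above its value after TMM scaling. With total counts 8970 genes were higher and 4099 lower, against 6746 and 6095 after TMM scaling. Under that scaling *Rbl2* was at -0.06 (adjusted p = 0.416), *Hbp1* at 0.32 (adjusted p = 0.000562) and *Cyld* at 0.27 (adjusted p = 5.24e-05, edgeR). Relative to that median the values were -0.39, -0.01 and -0.07, against -0.40, -0.02 and -0.07 after TMM scaling. *Bcl2l11* and *Zbtb4* were higher under each scaling tried.

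To assess what inhibition of miR-17 changed, RGLS4326-treated *Pkd2*-KO mice were compared with PBS-treated *Pkd2*-KO mice. None of the 5 genes was called (0 of 5, edgeR adjusted p under 0.05), against 33.8% of all tested genes. Called higher were 0 of 5, against 15.3% of all tested genes. The share over all tested genes depended on the setting. It was 37.5% with library set (described below) as a term, 0.364% in set 1 alone and 25.9% in set 2 alone. In set 3 alone 0 genes were called by edgeR, with 2825 at an unadjusted p under 0.05, and with the no-gene share of reads as a covariate the share was 0.569%. At an unadjusted p under 0.05, the edgeR test gave 1 of 5, *Hbp1*, against 46.4% of all tested genes. The groups overlapped for 5 of 5, as they did for nearly every tested gene (0.0639% had groups that did not overlap).

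*Hbp1* had the largest difference of the 5 genes. RGLS4326 mice had 127.6 to 204 CPM (median 155.5), and 4 of 11 lay above the highest PBS mouse while 9 of 11 lay above the PBS mean. The log2 fold change was 0.21 ± 0.09 (SE), a fold of 1.15 (95% interval 1.01 to 1.32), which did not pass after adjustment (edgeR adjusted p = 0.0832). This call sat near the threshold, with an adjusted p of 0.0405 when the PBS and RGLS4326 groups were analysed alone and of 0.0468 without PBS replicate 5, the PBS mouse with the highest *Hbp1* level (169.9 CPM). Over all 13 alternatives other than leaving out a library, its adjusted p ran from 0.0405 to 0.976.

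*Rbl2* and *Cyld* had smaller positive values. RGLS4326 mice ranged from 74.9 to 95.2 CPM (median 86.1) for *Rbl2*, and 9 of 11 lay above the PBS mean. Its log2 fold change was 0.13 (95% interval -0.02 to 0.28, edgeR adjusted p = 0.179). For *Cyld*, RGLS4326 mice ranged from 64.8 to 81.0 CPM (median 70.1) and 10 of 11 lay above the PBS mean, with a log2 fold change of 0.12 (95% interval -0.01 to 0.25, edgeR adjusted p = 0.127). The intervals reach above a log2 fold change of 0.25 for both, so small increases cannot be set apart from no change with these mice.

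*Zbtb4* and *Bcl2l11*, the genes that were higher in cystic kidneys, had values closest to or below those of the PBS group. *Zbtb4* ranged from 94.3 to 127 CPM (median 112) with RGLS4326, and its log2 fold change of 0.01 had the narrowest interval (-0.10 to 0.12, edgeR adjusted p = 0.907). *Bcl2l11* ranged from 24.6 to 36.3 CPM (median 32.6), with 8 of 11 mice below the PBS mean. Its log2 fold change was -0.12 (95% interval -0.31 to 0.06, edgeR adjusted p = 0.289). Increases of *Zbtb4* above 0.12 and of *Bcl2l11* above 0.06 on the log2 scale lie outside these intervals.

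Beside UNT mice, treated *Pkd2*-KO kidneys still had higher *Bcl2l11* and *Zbtb4* and lower *Rbl2*. The log2 fold change of RGLS4326 against UNT was 0.89 ± 0.09 (SE) for *Bcl2l11* (edgeR adjusted p = 5.75e-11), and 11 of 11 treated mice lay above the highest UNT mouse. *Zbtb4* was 0.77 ± 0.05 higher (edgeR adjusted p = 3.73e-15), again with no overlap. *Rbl2* was at -0.23 ± 0.07 (edgeR adjusted p = 0.00433) with 3 of 11 treated mice below the lowest UNT mouse. *Hbp1* was higher by 0.23 ± 0.09 (edgeR adjusted p = 0.0252) and *Cyld* was at 0.09 ± 0.06 (edgeR adjusted p = 0.199). In all 4 of 5 were called, against 77.7% of all tested genes. Higher were 3 of 5, against 40.8%, and lower was 1 of 5, against 36.9%. Here 2 of 5 had groups that did not overlap, against 36.7%. The call of *Hbp1* was lost under several settings, among them scaling by median ratios (adjusted p = 0.0578) and leaving out RGLS4326 replicate 1, UNT replicate 2, RGLS4326 replicate 10 or UNT replicate 9 (adjusted p up to 0.061). That of *Cyld* was gained without UNT replicate 10 (adjusted p = 0.0308), in library set 2 alone (0.28, adjusted p = 0.00866) and with total counts (0.40, adjusted p = 6.24e-08, edgeR). The call of *Rbl2* was lost in set 2 alone (-0.14, edgeR adjusted p = 0.179). With total counts the value of *Rbl2* turned to 0.07, against a median of 0.33 over all tested genes.

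**Figure D3:**
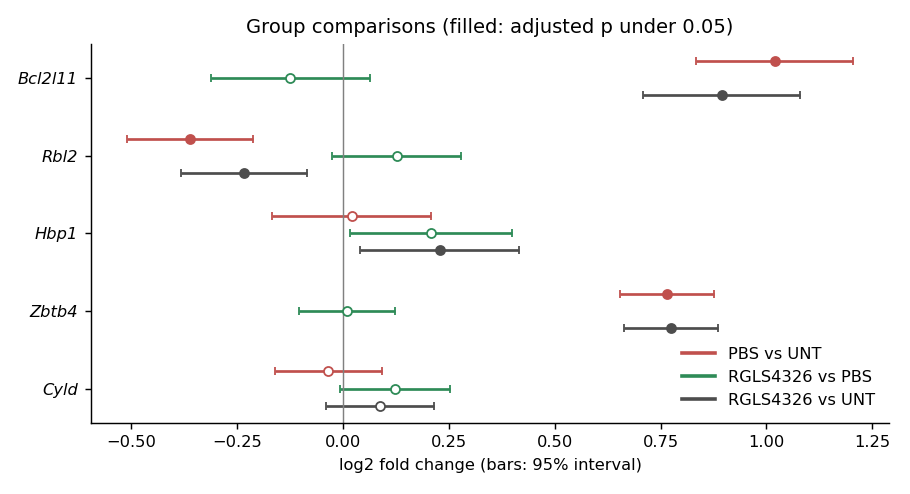
Log2 fold change of each gene in the 3 comparisons. The x axis gives the log2 fold change, bars are 95% intervals, and filled points passed an adjusted p of 0.05. The green points (RGLS4326 vs PBS) are all open and run from -0.12 for *Bcl2l11* to 0.21 for *Hbp1*.

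The library numbers in the names of the count tables restart, which splits the libraries into 3 sets, each with 3 or 4 mice of every group. Within these sets *Bcl2l11* in PBS kidneys exceeded its UNT level by 1.18, 1.05 and 0.84 on the log2 scale, and *Zbtb4* by 0.88, 0.67 and 0.76. *Rbl2* was at -0.39, -0.14 and -0.56 in sets 1, 2 and 3, and was not called when set 2 was fitted alone (-0.18, edgeR adjusted p = 0.0652). *Hbp1* (-0.01, 0.21 and -0.16) and *Cyld* (0.01, 0.16 and -0.26) had no common direction. In the test of a difference between sets, *Cyld* had the smallest p of the 5 genes (unadjusted p = 0.0135, adjusted p = 0.200, edgeR), and 0 of 15644 genes passed after adjustment, with 2858 at an unadjusted p under 0.05.

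For RGLS4326 against PBS the values within sets were small. *Hbp1* was at 0.43, -0.02 and 0.21, positive in sets 1 and 3 alone. *Rbl2* (0.25, 0.02 and 0.13) and *Cyld* (0.09, 0.14 and 0.16) were positive in each set. *Bcl2l11* (-0.06, -0.14 and -0.16) was negative in each set and *Zbtb4* (-0.06, 0.02 and 0.05) lay around 0. None of the 5 genes passed the test of a difference between sets (edgeR adjusted p from 0.768 to 0.981), and 0 of 15644 genes did, with 1126 at an unadjusted p under 0.05.

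**Figure D4:**
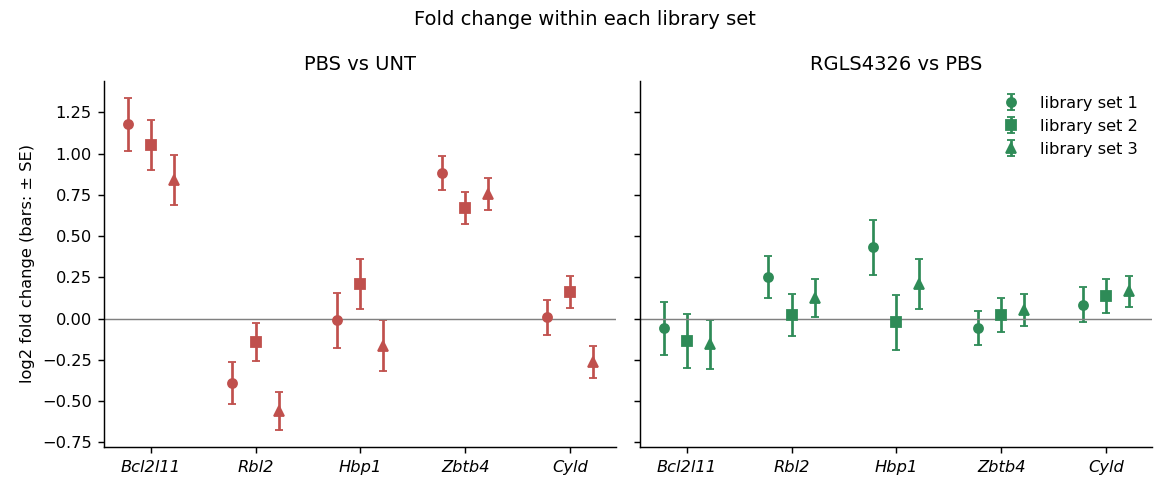
Log2 fold change of each gene within each of the 3 library sets. The y axis gives the log2 fold change of PBS vs UNT (left) and RGLS4326 vs PBS (right), bars are ± SE, and marker shapes stand for the sets. *Bcl2l11* and *Zbtb4* are above 0 in each set on the left, and *Hbp1* runs from -0.02 to 0.43 on the right.

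Several other reported targets of the miR-17 family passed the test after treatment when all mice were fitted together. Of 22 such genes, 9 were higher and 2 lower in RGLS4326 than in PBS kidneys, with a median log2 fold change of 0.18, beside 15.3% higher, 18.5% lower and a median of 0.00 over all tested genes. The polycystin gene *Pkd2*, itself floxed in these mice, had the smallest p, at 0.39 (edgeR adjusted p = 0.00439). The study also used a pharmacodynamic signature of miR-17 activity (miR-17 PD-Sig). This larger set of targets was chosen in cell lines for rising with anti-miR-17 and falling with a miR-17 mimic. A rise is thus the direction they were selected for. In *Pkd2*-KO mice 10 of its genes represented it. Of these 10, 6 were higher and 0 lower, with a median of 0.31 and *Mink1*, a kinase gene, at 0.40 (edgeR adjusted p = 2.11e-05). Both counts were repeated under settings chosen after seeing the data. Higher were 1 of the 22 targets and 0 of the 10 signature genes in library set 1 alone, 5 and 5 in set 2 alone, and 0 and 0 in set 3 alone (edgeR, with 9 and 6 at an unadjusted p under 0.05). Over all tested genes 0.268% were higher in set 1, 13.8% in set 2 and 0 in set 3. With the no-gene share of reads as a covariate, 0 of 22 and 1 of 10 were higher, with 6 and 4 at an unadjusted p under 0.05, against 0.358% of all tested genes called higher. The median of the 22 targets ran from 0.11 to 0.30 over these settings and that of the 10 signature genes from 0.15 to 0.39. Among the 604 tested genes with an 8-base match, 30.3% were higher in RGLS4326 than in PBS kidneys and 7.95% lower (median 0.14), and among the 11182 without a match 12.1% were higher and 21.6% lower (median -0.03). With the covariate, 9 of the 604 were higher and 0 lower (median 0.09), and 34 of the 11182 were higher and 26 lower (median -0.02). In sets 1, 2 and 3 alone, 2, 136 and 0 of the 604 were higher (medians 0.09, 0.13 and 0.20). Of the 11182, 30, 1241 and 0 were higher there (medians -0.02, -0.05 and -0.03). At an unadjusted p under 0.05 (edgeR) in set 3 were 136 of the 604 and 1989 of the 11182. *Bcl2l11*, *Rbl2*, *Zbtb4* and *Cyld*, each with an 8-base match in the longest 3′UTR, were at -0.12, 0.13, 0.01 and 0.12 in RGLS4326 against PBS.

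In PBS against UNT kidneys, 12 of the 22 targets were higher and 7 lower (median 0.26), with *Tgfbr2*, which encodes a TGF-beta receptor, at 2.11 (edgeR adjusted p = 5.23e-23). Of the 10 signature genes 5 were higher and 4 lower in that comparison, with *Mink1* at -0.60 (edgeR adjusted p = 1.18e-13), and 2 higher and 3 lower in set 2 alone and with the covariate, where 36% and 37% of all tested genes were higher and 35.7% and 33.1% lower. In library set 3 alone, where 33.8% of all tested genes were higher and 31% lower, 7 targets were higher and 7 lower with a median of -0.08, and 1 signature gene was higher and 5 lower with a median of -0.17, against 0.02 in all mice. When the mean level of the signature genes was set against that of its 6 housekeeping genes, as a difference in log2(CPM + 1) called the miR-17 PD-Sig score, each PBS mouse (-2.35 to -1.49) lay below each UNT mouse (-1.35 to -0.84). RGLS4326 mice ran from -1.69 to -1.06. Of those 6 housekeeping genes, 4 were themselves higher in PBS kidneys. In the fit of all mice, 43.1% of all tested genes were higher and 39% lower in PBS than in UNT kidneys. *Mir17hg*, the host transcript of the cluster, had a median of 10.03 CPM in UNT mice (7.67 to 11.6 CPM) and of 2.71 CPM in PBS mice, which lay below every UNT mouse. Its log2 fold change of -1.97 (edgeR adjusted p = 1.92e-06) was not called with the no-gene share of reads as a covariate, where it was -0.08 (adjusted p = 0.760). UNT and PBS mice did not overlap in that share, so this fit cannot tell group and share apart. In the fit of all mice *Mir17hg* was called higher in RGLS4326 than in PBS kidneys (edgeR adjusted p = 0.0137). It spread from 0.72 to 13.9 CPM (median 3.25), with 5 of 11 mice above the highest PBS mouse. Its log2 fold change was not called in set 1 alone (0.15) or set 3 alone (1.20), and with the covariate it turned to -0.30 (adjusted p = 0.364). *Mcm7*, a replication helicase gene that hosts miR-93 and miR-106b, was 0.69 above its UNT level in PBS kidneys on the log2 scale (edgeR adjusted p = 1.14e-10) and at -0.07 in RGLS4326 against PBS (adjusted p = 0.483).

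Most of the cell death partners of *Bcl2l11* were also higher in cystic kidneys. Of the 7 tested BH3-only genes including *Bcl2l11*, 6 were higher and 1 lower in PBS than in UNT kidneys (median 0.94, against 0.04 over all tested genes, of which 43.1% were higher and 39% lower). *Bbc3*, which encodes the p53-induced protein Puma, had the smallest p, at 2.09 (edgeR adjusted p = 7.14e-18). Of 7 survival and effector genes of the Bcl2 family, 6 were higher and 1 lower, with *Bok* at 2.52 (adjusted p = 2.91e-21). After RGLS4326, 2 of 7 BH3-only genes fell, among them *Bad* by 0.27 (adjusted p = 0.0185), and 4 of 7 survival and effector genes fell, among them *Bcl2l1*, which encodes Bcl-xL, by 0.42 (adjusted p = 0.00334), beside 18.5% lower over all tested genes. *Hrk* was too low to be tested, at 0.10 ± 0.06 CPM (SD) in UNT kidneys.

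Of 13 pocket protein and DREAM complex genes including *Rbl2*, 6 were higher and 6 lower in PBS than in UNT kidneys, near the shares of all tested genes (43.1% and 39%), with *Lin52*, a core subunit of the complex, at -0.99 (edgeR adjusted p = 1.21e-12). In set 2 alone 3 were higher and 4 lower, against 36% and 35.7% of all tested genes. After RGLS4326, 5 were higher and 2 lower, beside 15.3% and 18.5% of all tested genes, and the retinoblastoma gene *Rb1* rose by 0.45 (adjusted p = 0.00504). Of 5 activating and atypical E2F genes, 5 were higher in PBS than in UNT kidneys, with *E2f8* at 1.72 (adjusted p = 3.65e-12), and 0 of 5 were called after treatment by edgeR, where *E2f3* had the smallest p (0.17, adjusted p = 0.0842). Of 10 proliferation genes, 10 were higher in PBS than in UNT kidneys, with the mitotic kinase gene *Plk1* at 1.11 (adjusted p = 5.91e-08), and 1 rose with RGLS4326, the spindle checkpoint kinase gene *Bub1*, by 0.61 (adjusted p = 0.0193). In library sets 2 and 3 alone, 3 and 6 of the 10 proliferation genes were called higher in PBS kidneys, against 36% and 33.8% of all tested genes. Of the 5 E2F genes, 3 were called higher in each of these sets.

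The lists that follow are to be read beside the shares of all tested genes, 43.1% higher and 39% lower in PBS against UNT, and 15.3% higher and 18.5% lower in RGLS4326 against PBS. Among 17 partners and reported targets of *Hbp1*, itself included, 11 were higher and 2 lower in PBS than in UNT kidneys, and 1 was higher and 4 lower after RGLS4326. *Tcf7*, a transcription factor of the Wnt pathway that is also expressed in T cells, was at 2.96 in the first comparison (edgeR adjusted p = 4.1e-23) and at -0.42 in the second (adjusted p = 0.00506). The summed level of 5 T cell markers had medians of 4.62, 15.5 and 11.7 CPM in UNT, PBS and RGLS4326 kidneys, and its part in the difference of *Tcf7* was not tested. *Zbtb4* had the smallest p of the 9 methyl-CpG binding genes in PBS against UNT, where 5 were higher and 2 lower. After RGLS4326, 3 of these 9 were higher and 1, *Mbd3*, was lower (-0.29, adjusted p = 0.00855). Of 13 tested partners of *Cyld* in ubiquitin editing, itself included, 7 were higher and 3 lower in PBS than in UNT kidneys, with *Bcl3*, a nuclear NF-kappaB cofactor that Cyld deubiquitinates, at 3.35 (adjusted p = 1.44e-22). Here 2 were higher and 1 lower after treatment, and the ubiquitin ligase gene *Traf6* was at 0.23 (adjusted p = 0.0138). Of 4 FoxO genes, whose products activate *Bcl2l11* and *Rbl2* in other cells, 1 was higher and 1 lower in PBS than in UNT kidneys, with *Foxo1* at -0.37 (adjusted p = 1.66e-05), and 1, the weakly expressed *Foxo6*, was lower after treatment (-0.58, adjusted p = 0.0181). The 6 housekeeping genes of the miR-17 PD-Sig were themselves not level between UNT and PBS kidneys, where 4 were higher and 1 lower, *Gusb* being at 1.61 (adjusted p = 5.44e-20). After treatment 0 were higher and 1 was lower, *Gusb* at -0.21 (adjusted p = 0.034), whereas in set 2 alone 1 was higher and 0 lower, against 13.8% and 12% of all tested genes. In PBS against UNT with the covariate, 3 methyl-CpG binding genes were higher and 0 lower, and 2 housekeeping genes were higher and 1 lower, beside 37% higher and 33.1% lower over all tested genes. The covariate itself did not overlap between these groups. For RGLS4326 against PBS, no gene was called (0, edgeR) in any list of partners of the 5 genes, nor among the E2F, FoxO, proliferation and housekeeping genes, in library set 1 alone, in set 3 alone or with the covariate, with 0 to 6 genes of a list at an unadjusted p under 0.05. Over all tested genes 0.364%, 0 and 0.569% were called in these settings. The median of the survival and effector genes of the Bcl2 family, for example, was -0.20, -0.42 and -0.19 there, against -0.40 in all mice.

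**Figure D5:**
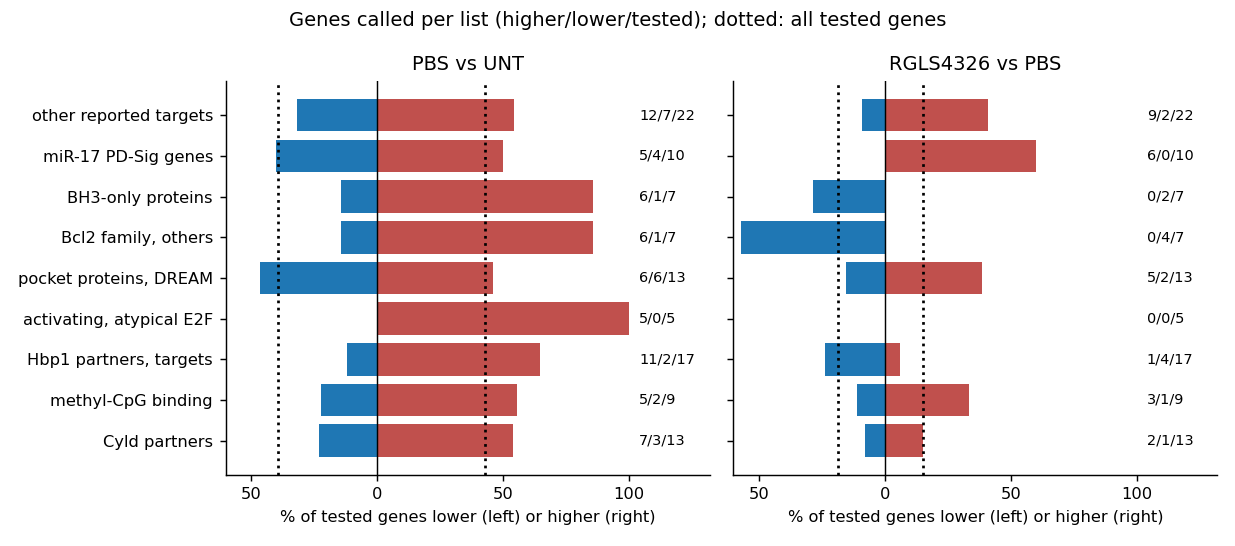
Share of each gene list called higher (right, red) or lower (left, blue) in PBS vs UNT and RGLS4326 vs PBS. The x axes give percent of the tested genes of a list, the figures at the right of each panel give the numbers higher, lower and tested, and dotted lines mark the shares over all tested genes. After RGLS4326, the other reported targets (9 of 22) and the miR-17 PD-Sig genes (6 of 10) lie right of the dotted line, and the survival and effector genes of the Bcl2 family (4 of 7) left of it, in the fit of all mice.

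Within groups, the levels of 4 of the 5 genes were correlated from mouse to mouse in normal kidneys. How often other pairs of tested genes correlate as closely was not computed, so this is not read as particular to these genes. Pearson's r and Spearman's rho of log2(CPM + 1) were computed for the 10 pairs in each group, with two-sided permutation tests (100000 resamples) adjusted over the 30 relations. In UNT mice (n = 12), 5 pairs passed by Pearson's r, all among *Bcl2l11*, *Rbl2*, *Hbp1* and *Cyld*. The closest pairs were *Bcl2l11* with *Hbp1* (r = 0.87, permutation p = 0.00041, adjusted p = 0.0044, rho = 0.92, adjusted p = 0.0013) and *Rbl2* with *Cyld* (r = 0.87, permutation p = 0.00044, adjusted p = 0.0044, rho = 0.93, adjusted p = 0.0013). Leaving out the 2 mice farthest from the median of the first gene gave 0.88 and 0.80. *Zbtb4* passed with none of the others, with r from -0.32 to 0.22. In PBS mice 0 of 10 pairs and in RGLS4326 mice 0 of 10 pairs passed by Pearson's r, with 4 and 1 at an unadjusted permutation p under 0.05, although 2 pairs in PBS mice passed by Spearman's rho. Whether the relations differ between groups was not tested. *Bcl2l11*, *Rbl2*, *Hbp1* and *Cyld* each had their highest UNT mean in library set 3 (19.5, 114, 155 and 74.5 CPM). After values were centred on the library set, 1 of 30 pairs passed, *Bcl2l11* with *Hbp1* in UNT mice (r = 0.91, adjusted p = 0.0465), and the UNT coefficients of the other 4 pairs were 0.76 to 0.84.

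No gene followed the proliferation score (mean log2(CPM + 1) of the 10 proliferation genes) or the miR-17 PD-Sig score within a group after adjustment. Of 30 relations, 0 passed the permutation test by either coefficient, and 5 had an unadjusted permutation p under 0.05 by Pearson's r. The strongest was *Rbl2* with the miR-17 PD-Sig score in PBS mice (n = 11, r = 0.83, permutation p = 0.0026, adjusted p = 0.0777, rho = 0.65, adjusted p = 0.334), where r was 0.60 without the 2 mice farthest from the median. In RGLS4326 mice the same pair had r = -0.30, and the difference between groups was not tested.

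For each of the 5 genes, the tested genes whose levels were most alike across mice were listed. Likeness was the mean of the 3 within-group values of Pearson's r over the 34 mice, given as a description because the same libraries and depths underlie each pair. *Hbp1* was closest to *Tcp11l2* (0.92) and *Dhx40* (0.88), *Cyld* to *Man1a2* (0.92) and *Pgm2l1* (0.90), *Rbl2* to *Tbcel* (0.91) and *Lmbrd1* (0.87), and *Zbtb4* to *Arrb1* (0.91) and *Prrc2b* (0.88). *Bcl2l11* had the loosest neighbours, *Rai2* (0.78) and *Ifih1* (0.78).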

How the data were processed

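Per the labels and the methods of the study, kidney RNA was prepared with a stranded mRNA kit (TruSeq) and sequenced as paired ends. The authors trimmed reads (Trim Galore), aligned them to GRCm38 (mm10) with STAR and counted uniquely mapped reads per gene with HTSeq 0.6.1. The deposited values were raw counts per gene symbol, 1 table per mouse, not normalized or pooled. The annotation and strand setting were not given in the sources used here, so genes sharing exons with an opposite-strand gene are uncertain.

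The 5 genes and all gene lists were chosen with earlier results of these data known. All 34 libraries entered 1 fit with 3 groups in edgeR 4.0.16 (R 4.3.3, TMM scaling, filterByExpr, two-sided quasi-likelihood test). Adjusted p is Benjamini-Hochberg over the 15644 genes tested, with a threshold of 0.05. CPM were TMM-scaled, with a pseudocount of 1 for correlations. Intervals are 95% intervals of the edgeR coefficient. Named from each list were the genes with the smallest p in PBS vs UNT and in RGLS4326 vs PBS, plus *Mir17hg*, *Mcm7* and *Pkd2*, and for each member the 2 genes most like it. Of the tested symbols, 14800 were found in GENCODE M21. Replicates were separate mice, and no libraries were identical (0 pairs). The procedure was tested on simulated counts. Alternatives were other scalings, DESeq2 1.42.0, no filter, 2 groups alone, library sets, a replicate block, the share of reads in no gene or the Y-linked gene *Ddx3y* above 1 CPM as terms, and each library left out. The gene lists were rerun by library set and with that share as a term, settings chosen after seeing the data. Python 3.11.15 and matplotlib 3.10.9 were used. Replicate numbers did not pair the mice.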

Additional observations from a re-analysis of the deposited data

Results flagged for a closer look

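The values of each gene were examined for a mouse far from the others within each group of 4 mice in a library set, by the ratio of its gap to the range (Dixon's test), over 35 such groups. Chance alone marks about 1 in 20 groups, and 2 of 35 were marked. For *Bcl2l11*, the PBS mice of library set 3 had 30.8, 31.9, 31.9 and 44.0 CPM (ratio 0.916). For *Rbl2*, the RGLS4326 mice of library set 3 had 74.9, 86.1, 87.8 and 88.1 CPM (ratio 0.845).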

How the results depend on the processing

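*Bcl2l11* and *Zbtb4* were higher, and called, in PBS and in RGLS4326 against UNT under each of 13 alternatives and with any of the 34 libraries left out. *Bcl2l11*, *Rbl2*, *Zbtb4* and *Cyld* were uncalled in RGLS4326 against PBS under each of these. The replicate numbers did not pair the mice (the deviations of same-numbered mice correlated above 0.1 in 2, 3 and 5 of 11 pairs), and a replicate block changed no call, with 12781, 5098 and 12162 genes called in PBS vs UNT, RGLS4326 vs PBS and RGLS4326 vs UNT. The causes of the changes below were not tested.

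In PBS vs UNT, *Hbp1* was at -0.013 with scaling by median ratios and with DESeq2, -0.020 without a filter, -0.064 with the no-gene share of reads as a covariate, and -0.047 and -0.16 in library sets 1 and 3 alone, all uncalled, and at 0.32 and called with total counts (adjusted p over all alternatives 0.000562 to 0.900). *Cyld* was at 0.27 and called with total counts, and uncalled at 0.12 in library set 2 alone and 0.046 with the covariate. *Rbl2* was uncalled at -0.058 with total counts and at -0.18 in set 2 alone (adjusted p = 0.0652).

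In RGLS4326 vs PBS, the number of genes called was 57 in set 1 alone and 0 in set 3 alone (edgeR, with 2825 at an unadjusted p under 0.05), against 5280 in all mice, and 89 with the covariate. *Hbp1* was called at 0.21 in the 2 groups alone and was at -0.0059 in set 2. *Zbtb4* was at -0.051 in set 1. *Mir17hg*, called higher in all mice, was at -0.30 and uncalled with the covariate. Of the gene lists, rerun under settings chosen after seeing the data, the other reported targets fell from 11 genes called to 1 in set 1, 5 in set 2, 0 in set 3 and 0 with the covariate, and the miR-17 PD-Sig genes from 6 to 0, 5, 0 and 1, with positive medians under each. In PBS vs UNT, the proliferation genes fell from 10 called to 3 in set 2 and 6 in set 3, the E2F genes from 5 to 3 in each of these sets, the pocket protein and DREAM genes from 12 to 7 in set 2, the miR-17 PD-Sig genes from 9 to 5 in set 2 and with the covariate, the methyl-CpG binding genes from 7 to 3 and the housekeeping genes from 5 to 3 with the covariate, and the FoxO genes from 2 to 1 in sets 2 and 3 and with the covariate. Over all tested genes the share called fell from 82.1% to 71.7% in set 2, 64.7% in set 3 and 70.2% with the covariate. *Mir17hg* went from -1.97 to -0.084 and was uncalled with the covariate, and the median of the other reported targets turned to -0.082 in set 3. UNT and PBS mice did not overlap in the covariate, so PBS vs UNT with it cannot tell group and share apart.

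In RGLS4326 vs UNT, *Hbp1* was uncalled at 0.19 with median ratios and with DESeq2, 0.20 without a filter, 0.18 in the 2 groups alone, 0.17 in set 2, 0.048 in set 3 and 0.18 with the covariate. *Rbl2* was at 0.075 with total counts and at -0.14 in set 2, both uncalled. *Cyld* was called at 0.40 with total counts and at 0.28 in set 2, and was at -0.097 in set 3. With total counts 9148 genes were higher and 3471 lower, against 6385 and 5772 after TMM scaling.

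Leaving out single libraries gave log2 fold changes from -0.017 to 0.064 for *Hbp1* and from -0.058 to 0.0085 for *Cyld* in PBS vs UNT, from 0.17 to 0.24 for *Hbp1* and from -0.012 to 0.030 for *Zbtb4* in RGLS4326 vs PBS, and from 0.19 to 0.27 for *Hbp1* and from 0.065 to 0.13 for *Cyld* in RGLS4326 vs UNT. Centring on the library set left 1 of 5 correlations between members below the threshold. With 3′UTRs merged over coding transcripts, miR-17 matches numbered 3 in *Bcl2l11* and 1 in *Hbp1*.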
